A study of Mus musculus with 12 samples.

Results

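The integrin subunits of chondrocytes described here are the products of Itga1, Itga2, Itga3, Itga5, Itga6, Itga10, Itga11, Itgav, Itgb1 and Itgb5. They were chosen by gene symbol as the receptors for collagen, fibronectin and laminin, and 10 of the 17536 genes measured were members. Their mRNA was measured by RNA sequencing in cells from the superficial zone (SFZ) and the deep zone (DZ) of mouse joint cartilage, to ask what loss of the transcription factor Runx3 does in each zone. R3-Cntl mice (labelled Cntl) were Runx3 fl/fl littermates, and R3-cKO mice (labelled Runx3cKO) were Col2a1-Cre; Runx3 fl/fl, so the deletion was limited to cells in which the Col2a1 promoter had driven Cre. All mice were 5 days old, of the strain C57BL/6 per the labels, with a C57BL/6J background named in the study's methods. SFZ cells were released from the joint ends of femur and tibia by trypsin and then collagenase, DZ cells came from further collagenase digestion of the cartilage that remained, and the cells were then seeded as a monolayer on fibronectin-coated dishes in medium with serum. Each of the 4 groups (R3-Cntl SFZ, R3-cKO SFZ, R3-Cntl DZ and R3-cKO DZ) held 3 libraries, called replicates 1, 2 and 3 after the labels. The study names 3 littermates of each genotype as the source of SFZ and DZ cells, so both zones may come from the same mice, but whether a number stands for the same mouse in both zones is not given in the sources used here. Levels are given in FPKM, a count of fragments scaled to transcript length and library size, so that levels of different genes can be set side by side.

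Integrins are receptors in the cell membrane, each built of an alpha and a beta chain, that hold the matrix on the outside and the actin cytoskeleton on the inside through adaptor proteins such as talin and kindlin. In cartilage, the subunits of Itga1, Itga2, Itga10 and Itga11 pair with that of Itgb1 to bind collagens, and the receptor with the Itga10 chain is the typical chondrocyte receptor for type II collagen, whereas that with the Itga11 chain is best known from fibroblasts and binds type I collagen. The subunits of Itga3 and Itga6 bind laminins, that of Itga5 with Itgb1 is the classic fibronectin receptor, and that of Itgav with Itgb1 or Itgb5 binds vitronectin and other ligands with the sequence Arg-Gly-Asp (RGD).

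In the mm9 build, Itga1 (gene ID 109700) lay at chr13:115748287-115892172 and Itga2 (16398) at chr13:115626124-115722249, both on the minus strand and 26037 bases apart. The other members lay on their own in the genome or far from each other. Itga11 (319480) was at chr9:62525633-62631789 on the plus strand, Itga10 (213119) at chr3:96449507-96468442 on the plus strand, and Itgb1 (16412) at chr8:131209554-131257100 on the plus strand. Itga3 (16400) was at chr11:94905788-94938115 and Itga5 (16402) at chr15:103174720-103197194, both on the minus strand. Itga6 (16403) was at chr2:71583673-71696473, Itgav (16410) at chr2:83564554-83647073 and Itgb5 (16419) at chr16:33829751-33949239, all on the plus strand. The protein-coding gene Pelo (18.11 to 25.24 FPKM) lay inside Itga1 on the same strand. Reads could have been shared between them, so the level of Itga1 is uncertain to that extent.

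The promoters of the members that differed between the zones are shown first, because these genes were lower together in the DZ libraries. Each is the 250 bases before a RefSeq start site (GRCm38.p6 table), given 5′ to 3′ on the gene's own strand with its place in mm9, where it matched exactly once. Itga1 is from chr13:115892173-115892422 (minus), Itga11 from chr9:62525412-62525661 (plus) and Itgb1 from chr8:131209304-131209553 (plus). The last one, from chr11:94930513-94930762 (minus), precedes a start site inside Itga3, and the capitals in it mark a Runx motif.
Itga1: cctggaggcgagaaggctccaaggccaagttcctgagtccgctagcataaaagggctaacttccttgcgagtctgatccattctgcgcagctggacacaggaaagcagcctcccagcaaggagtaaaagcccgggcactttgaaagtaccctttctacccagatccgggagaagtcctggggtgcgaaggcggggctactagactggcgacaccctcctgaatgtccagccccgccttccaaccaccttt
Itga11: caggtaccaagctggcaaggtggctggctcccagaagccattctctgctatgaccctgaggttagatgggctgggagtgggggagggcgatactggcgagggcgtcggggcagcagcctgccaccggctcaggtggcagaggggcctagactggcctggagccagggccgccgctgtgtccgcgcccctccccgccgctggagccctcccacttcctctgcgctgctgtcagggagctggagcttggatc
Itgb1: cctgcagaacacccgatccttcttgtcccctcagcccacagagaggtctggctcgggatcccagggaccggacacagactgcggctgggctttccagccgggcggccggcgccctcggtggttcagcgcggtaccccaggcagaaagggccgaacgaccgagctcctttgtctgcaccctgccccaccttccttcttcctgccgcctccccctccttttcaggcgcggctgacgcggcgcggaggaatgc
Itga3: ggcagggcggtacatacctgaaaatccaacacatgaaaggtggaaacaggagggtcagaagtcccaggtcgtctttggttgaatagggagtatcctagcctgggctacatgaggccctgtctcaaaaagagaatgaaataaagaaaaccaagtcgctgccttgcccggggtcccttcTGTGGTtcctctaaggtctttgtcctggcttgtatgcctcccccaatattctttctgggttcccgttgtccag
The table held promoters of 9 of the 10 members, 10 promoters in all because Itga3 had 2; Itga6 is named only. TGTGGT or TGCGGT, the letters bound by Runx proteins, was searched on both strands (ACCACA or ACCGCA on the other). Of the 10 promoters, 1 held a match, TGTGGT in the second Itga3 promoter, with its first base 73 bases before the start site. Among all 32851 promoters of this length in the table, 6107 (18.6%) held either motif, so the members' share was near the general one.

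The label of the deletion was first checked against Runx3 itself. In SFZ, the Runx3 level was 10.73, 5.98 and 6.65 FPKM for R3-Cntl, and libraries labelled R3-cKO were at 11.83, 9.07 and 3.42 FPKM. In DZ, R3-Cntl was at 12.67, 12.65 and 7.66 FPKM, and libraries labelled R3-cKO were at 15.95, 12.66 and 8.14 FPKM. Runx3 was thus no lower under the R3-cKO label in either zone, with a log2 fold change of -0.04 in SFZ (adjusted p = 1) and 0.13 in DZ (adjusted p = 0.999). Which exons the allele loses is not given in the sources used here, and a level over the whole gene does not check a deleted part, so every genotype direction below is one between labels. The zone labels were checked with Col2a1 and Acan, the main collagen and proteoglycan of cartilage, and with Prg4, which encodes the lubricin of the joint surface. Col2a1 averaged 5924 ± 2584 FPKM in SFZ and 16540 ± 3899 FPKM in DZ (SD, n = 6 each) and did not overlap between the zones. Acan was 127.00 to 669.68 FPKM in SFZ and 738.03 to 2045.89 FPKM in DZ. Prg4 reached 22.24, 8.38 and 7.13 FPKM in R3-Cntl SFZ but 6.95, 2.47 and 2.13 FPKM in SFZ under the R3-cKO label, against 1.22 to 5.72 FPKM in DZ. It was higher in SFZ (adjusted p = 0.0253), but it was low for a defining marker and the zones overlapped. Within SFZ, all 3 R3-Cntl libraries were above all 3 under the R3-cKO label, a log2 fold change of -1.45 that was not called (unadjusted p = 0.0307, adjusted p = 1 in limma). Acan in DZ was lower under the R3-cKO label for each replicate number, but the groups overlapped and it was not called (-0.41, unadjusted p = 0.252, adjusted p = 0.999 in limma).

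All 10 members were detected, and they spanned a wide range of levels. Itgb1, the common beta partner, had a mean of 188 FPKM over the 12 libraries, higher than 98.2% of genes, and Itgb5 followed at 76.2 FPKM. The alpha subunits ran from Itga5 (41.4 FPKM) through Itgav (24.7), Itga6 (24.2), Itga10 (19.8), Itga11 (16.5), Itga1 (12.1) and Itga3 (11.2) to Itga2 (2.26 FPKM, above 42.1% of genes). In the SFZ libraries the ranges of Itgb1 (179.26 to 249.76 FPKM), Itgb5 (60.35 to 107.44 FPKM) and Itga5 (30.93 to 54.82 FPKM) did not overlap, whereas neighbours from Itgav down to Itga1 lay within each other's spread. The order shifted most between the zones at Itga11, which averaged 26.4 ± 15.0 FPKM in SFZ, close to Itgav (27.6 ± 6.18 FPKM), and 6.69 ± 4.57 FPKM in DZ, below Itga1 (7.92 ± 2.81 FPKM; SD, n = 6 each). Itga2 reached 1 FPKM in 9 of the 12 libraries, and the other 9 members in all 12.

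**Figure D1:**
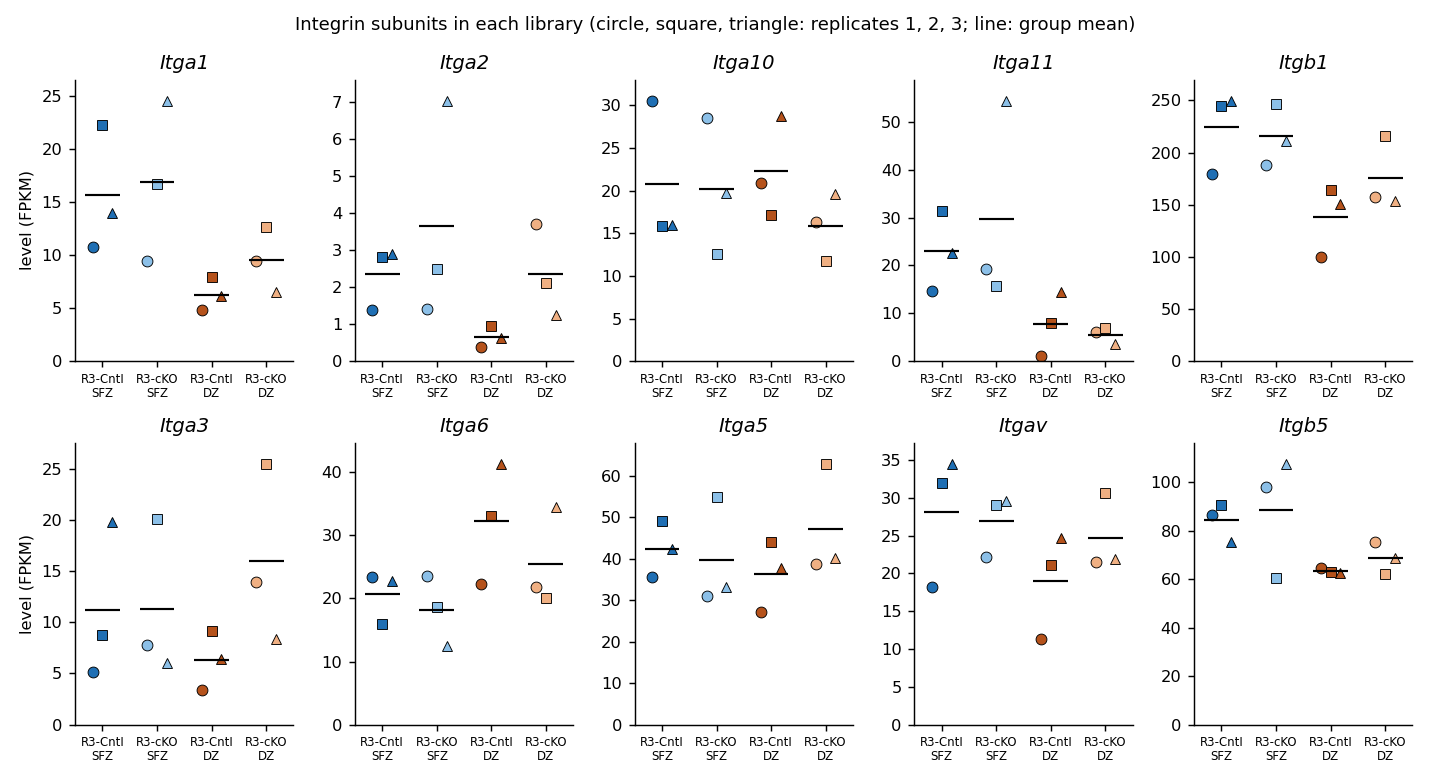
Level in FPKM (linear axes from 0) of each integrin subunit in each of the 12 libraries, by zone and genotype label, with circle, square and triangle for replicates 1, 2 and 3 and a line at the group mean. The 6 DZ libraries of Itga11 (1.01 to 14.49 FPKM) all sat below its 6 SFZ libraries (14.76 to 54.43 FPKM), while Itga5 and Itga10 were spread over the same range in both zones.

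Between the zones, taken over both genotypes, 3 members were lower in DZ: Itga11, Itga1 and Itgb1. Itga11 measured 14.76, 31.47 and 22.63 FPKM in R3-Cntl SFZ, 19.35, 15.64 and 54.43 in the libraries labelled R3-cKO SFZ, 1.01, 8.02 and 14.49 in R3-Cntl DZ and 6.03, 6.93 and 3.68 in those labelled R3-cKO DZ. Every DZ library was below every SFZ library, although the highest DZ library, replicate 3 of R3-Cntl, nearly met the lowest SFZ library, replicate 1 of R3-Cntl. Itga11 fell by 1.93 on the log2 scale from SFZ to DZ (SE 0.49, 95% interval -3.01 to -0.86, adjusted p = 0.0205), a 3.82-fold difference of FPKM + 1. Itga1, whose receptor binds type IV and other collagens, measured 10.80, 22.24 and 13.99 FPKM in R3-Cntl SFZ, 9.48, 16.75 and 24.57 in the libraries labelled R3-cKO SFZ, 4.83, 7.91 and 6.12 in R3-Cntl DZ and 9.48, 12.66 and 6.54 in those labelled R3-cKO DZ. All 6 DZ libraries were below the SFZ median of 15.4 FPKM and 4 of them below the lowest SFZ library, so the zones overlapped only through the libraries labelled R3-cKO DZ. Itga1 fell by 0.94 (SE 0.25, 95% interval -1.49 to -0.38, adjusted p = 0.0263).

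Itgb1 measured 179.26, 244.36 and 249.76 FPKM in R3-Cntl SFZ, 188.23, 246.95 and 211.13 in the libraries labelled R3-cKO SFZ, 100.01, 163.82 and 150.45 in R3-Cntl DZ and 157.38, 215.90 and 153.18 in those labelled R3-cKO DZ. In DZ, 5 of 6 libraries were below the lowest SFZ library, and replicate 2 labelled R3-cKO lay within the SFZ range. Itgb1 fell by 0.51 (SE 0.16, 95% interval -0.85 to -0.16, adjusted p = 0.0430). The 3 of 10 members called stood against 20.6% of the 11765 genes tested, 2424 genes, of which 1974 were lower and 450 higher in DZ. At an unadjusted p under 0.05 the count was 6 of 10 members against 35.9% of genes, and groups that did not overlap were found for 1 member, Itga11, against 11.3% of genes. With 10 members, these counts do not set the family apart from the table as a whole. These tests treat the 6 libraries of a zone as independent. With the replicate number within a genotype as a block, 5 members were called, Itgb1 (adjusted p = 0.00437), Itga11 (0.0148), Itgav (0.0185), Itga1 (0.0207) and Itgb5 (0.0291), and 3949 of the 11765 genes. Because the samples are bulk RNA, fewer cells that carry a transcript and less of the transcript in each cell cannot be told apart here.

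Most genes of the table were lower in DZ as well. The median log2 fold change over all genes was -0.14, and 72% of genes were lower in DZ, compared with a median of -0.35 for the members and 8 of 10 lower. Scaling by median-of-ratios size factors brought the all-gene median to 0.0025 and the share of called genes that were lower from 81.4% to 51%, and quantile normalization gave 0.034 and 43%. Itga11 was called under both scalings (-1.79, adjusted p = 0.0327, and -1.75, adjusted p = 0.0326), whereas Itga1 (-0.79, adjusted p = 0.0523, and -0.76, adjusted p = 0.0575) and Itgb1 (-0.34, adjusted p = 0.132, and -0.46, adjusted p = 0.0531) were not. Without replicate 2 of R3-Cntl SFZ no member was called by limma, against 1245 of the 11661 genes tested. At an unadjusted p under 0.05 there were 4 members, against 3296 genes. The adjusted p was then 0.0583 for Itga11, 0.0689 for Itga1 and 0.107 for Itgb1. Itga11 was the only member called without replicate 3 labelled R3-cKO SFZ, replicate 1 of R3-Cntl DZ, replicate 1 labelled R3-cKO DZ or replicate 3 labelled R3-cKO DZ, where the adjusted p was 0.0545 to 0.0664 for Itga1 and 0.0765 to 0.0960 for Itgb1. Itgb1 alone dropped out without replicate 3 of R3-Cntl SFZ (adjusted p = 0.0887), replicate 1 labelled R3-cKO SFZ (0.0530) or replicate 2 labelled R3-cKO SFZ (0.0724), the last of which brought in Itgb5 (adjusted p = 0.00473). Itgb1 was also not called with no filter on low values or with a filter at a mean of 10 FPKM.

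Among the other collagen receptors, Itga10 did not differ detectably between the zones (20.5 ± 7.36 FPKM in SFZ and 19.1 ± 5.73 FPKM in DZ; log2 fold change -0.076, 95% interval -0.60 to 0.45). Its sign turned, to 0.080 with size factors and 0.072 with quantile normalization. Itga2, which neighbours Itga1, averaged 3.01 ± 2.09 FPKM in SFZ and 1.51 ± 1.23 FPKM in DZ, and its log2 fold change of -0.67 missed the threshold (adjusted p = 0.130). Of the laminin receptors, Itga6 was the member with the highest DZ to SFZ difference, at 19.5 ± 4.60 FPKM in SFZ and 28.8 ± 8.67 FPKM in DZ. Its DZ level was above the SFZ median in 5 of 6 libraries and above the highest SFZ library in 3, but the log2 fold change of 0.53 (95% interval 0.066 to 0.99) was not called (adjusted p = 0.0969). Itga3 was spread over the same range in both zones (5.18 to 20.11 FPKM in SFZ and 3.34 to 25.47 FPKM in DZ; log2 fold change -0.069, which turned to 0.074 with size factors and 0.14 with quantile normalization).

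The fibronectin receptor subunit Itga5 averaged 41.0 ± 9.51 FPKM in SFZ and 41.8 ± 11.8 FPKM in DZ, with a log2 fold change of 0.014 and a 95% interval of -0.40 to 0.43. Itgav (-0.34, adjusted p = 0.277) and its partner Itgb5 (-0.36, adjusted p = 0.0767) were not called without the block, and both were with it, as given above. Itgb5 was nevertheless tight in DZ, at 61.99 to 75.18 FPKM against 60.35 to 107.44 FPKM in SFZ, and all 6 DZ libraries were below the SFZ median of 88.6 FPKM.

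**Figure D2:**
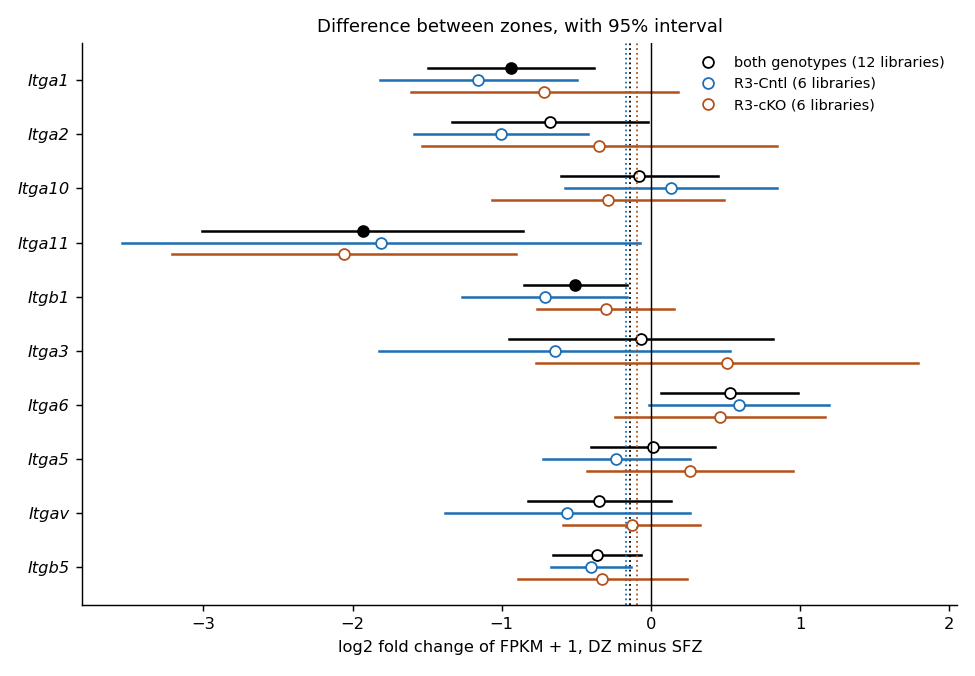
Log2 fold change of FPKM + 1 from SFZ to DZ for each integrin subunit, over both genotypes and within each genotype label, with lines for the 95% interval, filled points for an adjusted p under 0.05 and dotted lines at the median of all genes tested. Itga11, Itga1 and Itgb1 are filled for both genotypes together (-1.93, -0.94 and -0.51), and no point is filled within a single genotype.

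Within R3-Cntl alone, 5 members did not overlap between the zones (Itga1, Itga2, Itga11, Itgb1 and Itgb5), against 32.4% of the 11336 genes tested, and all 5 were lower in DZ. None of the 10 was called by limma, against 1.24% of genes, and 5 had an unadjusted p under 0.05 against 27.4% of genes. The log2 fold changes were -1.81 for Itga11 (adjusted p = 0.169), -1.16 for Itga1 (adjusted p = 0.0760), -1.0 for Itga2 (adjusted p = 0.0774), -0.71 for Itgb1 (adjusted p = 0.12) and -0.40 for Itgb5 (adjusted p = 0.0991). Itga2 passed the filter on low values only through the SFZ libraries, at 1.39, 2.82 and 2.89 FPKM, since its DZ libraries were at 0.38, 0.95 and 0.64 FPKM, and without it 4 of 9 members did not overlap. Itga11 moved to -0.96 without replicate 1 of R3-Cntl DZ. Without replicate 1 of R3-Cntl SFZ, Itga1 was called (-1.38, adjusted p = 0.0455). A block for the replicate number gave 4 members called (Itga1, Itga2, Itgb1 and Itgav), 3 of 9 without Itga2, and 831 genes. Without the block, the other members had intervals that included 0: Itga6 (0.59), Itga10 (0.13), Itga5 (-0.23), Itgav (-0.56) and Itga3 (-0.65).

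In the libraries labelled R3-cKO, Itga11 alone did not overlap between the zones, 1 of 10 members against 21% of the 11336 genes tested, with a log2 fold change of -2.06 (SE 0.48, adjusted p = 0.177). It was also the 1 member with an unadjusted p under 0.05, against 14.1% of genes, and limma called 0 members, against 0.0176% of genes (2 genes). With the replicate number as a block, 352 genes but again no member were called by limma. At an unadjusted p under 0.05 there were 4 members, against 3396 of the 11336 genes. Itga1 (-0.71), Itga2 (-0.35), Itgb5 (-0.33), Itgb1 (-0.30), Itga10 (-0.29) and Itgav (-0.13) were lower in DZ, and Itga3 (0.51), Itga6 (0.46) and Itga5 (0.26) higher, none of them called. The members at an unadjusted p under 0.05 with the block (limma) were Itga11, Itgb1, Itga3 and Itga5, with adjusted p of 0.0797 to 0.128. Within each of the 3 pairs of libraries Itga11 and Itgb1 were lower in DZ and Itga3 and Itga5 higher. The share of all genes with the same direction in all 3 pairs was not counted. Both zone comparisons contribute libraries to the comparison over both genotypes, so their values are not separate evidence.

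The makeup of the collagen receptor set followed from these levels and is given as a description, with shares chosen after the values were seen. The summed level of Itga1, Itga2, Itga10 and Itga11 was 66.2 ± 21.0 FPKM in SFZ and 35.2 ± 7.83 FPKM in DZ (SD, n = 6 each), with ranges of 47.4 to 105.7 and 27.2 to 50.1 FPKM that overlapped slightly. Itga10 made up a median of 27.6% of this sum in SFZ (18.6 to 53.1%) and 54.0% in DZ (35.0 to 77.1%). Itga11 made up a median of 36.9% in SFZ (25.7 to 51.5%) and 18.9% in DZ (3.72 to 29.0%). The collagen receptor set was thus weighted towards Itga10 in DZ, with Itga11 lower there and Itga10 little different in level. Such shares do not change when a whole library is multiplied by 1 factor, and they were not recomputed with quantile normalization.

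Among all 8 alpha subunits, the laminin-binding pair made up 9.87 to 24.3% of the summed FPKM in SFZ and 26.4 to 31.5% in DZ, and the zones did not overlap. The summed level of this pair did overlap, at 18.4 to 42.5 FPKM in SFZ and 25.6 to 47.7 FPKM in DZ. The collagen-binding share was 27.9 to 56.6% in SFZ and 19.4 to 31.3% in DZ, and the share of Itga5 and Itgav was 33.5 to 49.3% and 39.0 to 54.2%. Itgb1 exceeded the summed alpha subunits other than Itgav in every library, by a ratio of 1.60 ± 0.17 in SFZ and 1.34 ± 0.14 in DZ. The ratio of Itgb5 to Itgav averaged 3.32 in both zones (SD 1.14 and 1.29).

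**Figure D3:**
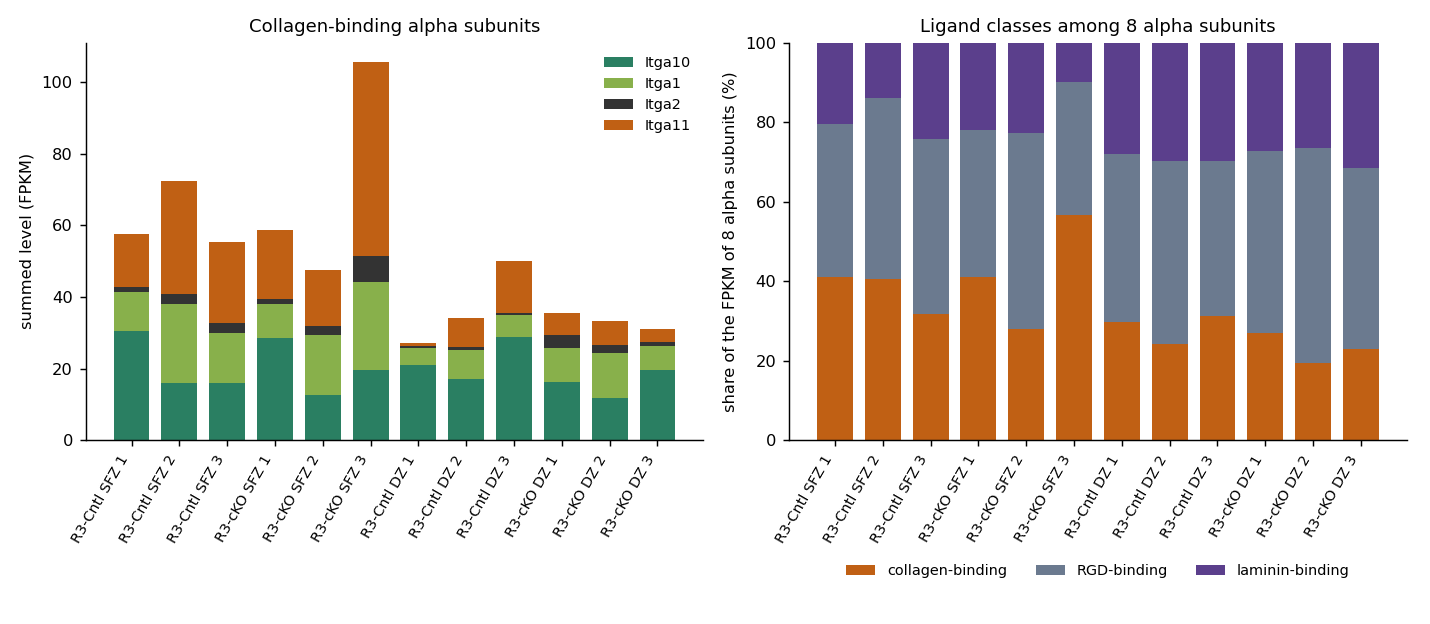
Left, summed level in FPKM of the 4 collagen-binding alpha subunits in each library; right, share in percent of collagen-, RGD- and laminin-binding subunits among the 8 alpha subunits. The left bars are taller in SFZ (47.4 to 105.7 FPKM) than in most DZ libraries (27.2 to 50.1 FPKM). The laminin-binding share is at least 26.4% in every DZ library and at most 24.3% in every SFZ library. The laminin-binding level itself, not drawn, overlapped between the zones (18.4 to 42.5 FPKM in SFZ and 25.6 to 47.7 FPKM in DZ).

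Markers of other cells moved with the zones, and their part in the integrin differences was not tested. The 14 chondrocyte markers found, led by Col2a1, summed to 16614.2, 5306.9 and 10078.5 FPKM in R3-Cntl SFZ, 14044.6, 8345.8 and 5895.0 in the libraries labelled R3-cKO SFZ, 38176.3, 23924.0 and 30901.3 in R3-Cntl DZ and 24907.8, 16643.5 and 29820.3 in those labelled R3-cKO DZ, and 12 of 14 rose in DZ. The 10 fibroblast and tenocyte markers, led by Col1a1, summed to 5285.2, 8617.4 and 5273.8 FPKM in R3-Cntl SFZ, 5599.6, 4523.7 and 12398.3 in the libraries labelled R3-cKO SFZ, 1184.7, 1457.8 and 3888.6 in R3-Cntl DZ and 1320.5, 1273.2 and 2999.3 in those labelled R3-cKO DZ, and 6 of 10 fell in DZ. Every fibroblast marker reached 1 FPKM. In every SFZ library most of the sum was Col1a1, Col1a2 and Col3a1, and not all of the list was lower in DZ: Dcn averaged 160.8 FPKM in SFZ and 352.4 FPKM in DZ (not called), and Lum 143.4 and 142.8 FPKM. Replicate 3 labelled R3-cKO SFZ had the highest sum and the highest Itga11, and replicate 1 of R3-Cntl DZ the lowest of both, but among the libraries labelled R3-cKO DZ, replicate 3 had the highest sum and the lowest Itga11. The 12 superficial zone markers, led by Sfrp2, summed to 345.1, 878.5 and 309.8 FPKM in R3-Cntl SFZ, 313.4, 265.5 and 1288.6 in the libraries labelled R3-cKO SFZ, 19.9, 27.4 and 69.0 in R3-Cntl DZ and 29.3, 35.1 and 51.3 in those labelled R3-cKO DZ, and 8 of 12 fell in DZ. Tnxb and Creb5, both among those that fell, passed the filter only through SFZ libraries. Not all of the superficial zone list was lower in DZ: Gdf5 averaged 3.65 FPKM in SFZ and 7.22 FPKM in DZ (not called). Erg (4.6 and 3.3 FPKM), Dkk3 (54.5 and 15.6 FPKM) and Vit (6.1 and 2.9 FPKM) were lower in DZ but not called. The chondrocyte list shares 4 collagen genes, the fibroblast list 3 and the superficial list Postn with the ligand lists below.

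The 13 macrophage and leukocyte markers found, led by Lyz2, summed to 203.6, 172.1 and 8.6 FPKM in R3-Cntl SFZ, 171.4, 17.3 and 81.1 in the libraries labelled R3-cKO SFZ, 9.0, 8.2 and 27.6 in R3-Cntl DZ and 7.0, 5.7 and 4.0 in those labelled R3-cKO DZ. Of 12 tested, 8 fell in DZ, of which Csf1r, Cd14 and C1qc passed the filter only through SFZ libraries, and Ptprc, which marks all leukocytes, never reached 1 FPKM. The 10 skeletal muscle markers, led by Acta1, summed to 129.4 FPKM in replicate 2 of R3-Cntl SFZ and to 5.6 to 20.3 FPKM elsewhere, with Ttn and Ckm never at 1 FPKM. That library stands apart, and without it no member was called between the zones. Of the endothelial markers (sums 10.1 to 34.3 FPKM, led by Eng) 7 of 12 never reached 1 FPKM, as did 8 of 12 keratinocyte markers (10.7 to 27.6 FPKM, led by Perp), 4 of 8 osteoclast markers (40.9 to 178.7 FPKM, led by Ctsk) and 6 of the 8 erythroid and platelet markers found (0.4 to 2.4 FPKM, led by Pf4). Schwann and neural markers summed to 38.6 to 285.9 FPKM, led by S100b, which chondrocytes also express, with Sox10 never at 1 FPKM. Hypertrophic and osteoblast markers summed to 372.3 to 1575.8 FPKM, led by Spp1, with Phex and Dmp1 never at 1 FPKM. In these last 6 lists 3 genes were called between the zones: Eng and Bglap, lower in DZ, and Mbp, higher, which passed the filter only through DZ libraries.

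Ligands of the collagen receptors differed in both directions between the zones. Of 14 collagen genes tested, 4 rose in DZ and 6 fell, with a median log2 fold change of -0.57 against -0.14 for all genes. Over all 11765 genes tested, 1974 (16.8%) were called lower and 450 higher, which is the share to set beside this and the following lists. Those that rose were the cartilage collagens Col2a1 (1.57, adjusted p = 0.00878), Col9a1 (1.66), Col11a1 (1.07) and Col11a2 (1.24). Those that fell were Col1a1 (from 2709 to 350.1 FPKM, log2 fold change -3.73, adjusted p = 0.0136 in limma), Col1a2 (-3.20), Col3a1 (-2.34) and Col5a1 (-1.11). The basement membrane collagens Col4a1 (-1.86) and Col4a2 (-1.22) fell as well. Col2a1 was not called with quantile normalization, nor Col3a1 and Col4a2 without replicate 2 of R3-Cntl SFZ. Itga11 and the type I collagen genes were thus lower in the same zone, while Itga10 differed little where Col2a1 was higher. Of the 12 RGD and related ligands tested, Fn1, the fibronectin gene, rose in DZ (from 1845 to 2907 FPKM; 0.65, adjusted p = 0.0264) and so did Comp (1.07), whereas Postn (from 134 to 2.31 FPKM; -5.21, adjusted p = 0.000816), Nov (-4.03) and Fbn1 (-1.18) fell, with a median of 0.29. Without replicate 2 of R3-Cntl SFZ, neither Fn1 nor Comp was called, and Fn1 was not called with quantile normalization. Vtn, the vitronectin gene and the classic ligand of the Itgav and Itgb5 pair, stayed at or below 0.04 FPKM.

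Of the 10 laminin and nidogen genes tested, 5 fell in DZ and none was called higher (limma; 8 of the 10 at an unadjusted p under 0.05), with a median of -0.56: Lamb1 (from 23.5 to 4.09 FPKM; -2.35), Nid1 (-1.19), Lamc1 (-1.07), Lama4 (-0.87) and Lama2 (-0.78). Itga6, the main laminin-binding subunit here, was not lower alongside them. Nid2, which missed the threshold (0.43), was called higher with size factors, and both Nid2 and Lama5 were with quantile normalization, while Nid1 was not called with size factors and Lama4 not with quantile normalization. Lama2 passed the filter only through SFZ libraries, and without replicate 2 of R3-Cntl SFZ it and Nid1 were no longer among the genes called, which left 3.

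The list of adaptors that join integrins to actin also held kinases and other regulators of adhesion. It was mixed, with 3 of 29 genes higher in DZ, 6 lower and a median of -0.30. Pxn (0.27), Kank1 (0.37) and Ptk2b (0.58) rose, and Parvb (-1.14), Kank2 (-0.83), Tns1 (-0.78), Parva (-0.63), Lims1 (-0.60) and Itgb1bp1 (-0.30) fell. Parvb reached 1 FPKM in 5 libraries, all of them SFZ, so it passed the filter only through the zone where it was high. Ptk2b reached 1 FPKM in 6 libraries. It was at 0.83, 1.22 and 0.93 FPKM in R3-Cntl SFZ and 0.60, 1.33 and 1.10 FPKM in R3-Cntl DZ. Only the libraries labelled R3-cKO DZ were higher, at 3.68, 2.81 and 2.40 FPKM. The talin gene Tln1 (-0.34, adjusted p = 0.244) and the kindlin gene Fermt2 (-0.11, adjusted p = 0.587), which activate integrins, were not called. With size factors, and without replicate 2 of R3-Cntl SFZ, 2 of the 6 that fell, Kank2 and Parvb, were called, and without that library Pxn was not called. With quantile normalization, Tns1 and Itgb1bp1 were not called. Of 11 surface partners, Sdc4, a syndecan that binds fibronectin (0.54), and the collagen receptor kinase Ddr1 (0.58) rose, and Cd47 (-0.67) and Ddr2 (-0.30), the kinase with a preference for fibrillar collagens, fell, with a median of -0.19. Ddr2 was not called with size factors or quantile normalization. With size factors, Cd151, a tetraspanin partner of laminin-binding integrins, was called higher, and without replicate 2 of R3-Cntl SFZ only Sdc4 and Cd47 were called.

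The 16 other integrin subunits in the table were low, and only 8 passed the filter for the zone comparison. Itga9 was called (3.02 ± 0.74 FPKM in SFZ and 1.51 ± 0.40 FPKM in DZ; -0.68, adjusted p = 0.0106) and did not overlap between the zones, but it was not called with quantile normalization. The leukocyte subunits Itgam and Itgb2 reached 1 FPKM only in replicates 1 and 2 of R3-Cntl SFZ and replicate 1 labelled R3-cKO SFZ, the libraries with the highest macrophage sums. Itgb4, the other partner of Itga6, stayed between 0.30 and 1.05 FPKM.

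For the question of the study, the genotype comparisons, no member was called in either zone. In SFZ the 10 log2 fold changes ran from -0.20 (Itga6) to 0.31 (Itga2), each with an adjusted p of 1 in limma, and 0 members were called against 0% of the 11537 genes tested. At an unadjusted p under 0.05 there were 0 members against 0.295% of genes, and 0 members did not overlap against 2.4%. The intervals show what remained possible: -0.50 to 0.40 for Itgb1, -0.87 to 1.01 for Itga1 and -1.01 to 1.43 for Itga11. The spread within a group was wide for Itga11, with replicate 3 labelled R3-cKO SFZ at 54.43 FPKM and the other 2 at 15.64 and 19.35 FPKM.

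In DZ, no member was called, and without the block Itga2 and Itga3 had an unadjusted p under 0.05. Itga2 was at 0.38, 0.95 and 0.64 FPKM for R3-Cntl, against 3.70, 2.12 and 1.25 FPKM under the R3-cKO label. The groups did not overlap, and Itga2 passed the filter only through the libraries labelled R3-cKO, so a gene at this level had to differ to be tested. Its log2 fold change was 0.97 (SE 0.29, 95% interval 0.27 to 1.67, unadjusted p = 0.0143, adjusted p = 0.999 in limma). Itga3 was at 3.34, 9.18 and 6.41 FPKM for R3-Cntl, against 13.97, 25.47 and 8.38 FPKM under the R3-cKO label, where the lowest library fell within the R3-Cntl range. Its log2 fold change was 1.17 (SE 0.45, 95% interval 0.094 to 2.24, unadjusted p = 0.0371, adjusted p = 0.999 in limma). No member was called against 0% of the 11091 genes tested, 2 had an unadjusted p under 0.05 against 3.64% of genes, and 1 did not overlap against 8.03%. Without Itga2 these counts are 1 and 0 of 9 members.

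The other members in DZ had intervals that included 0 without a block. Itga1 (0.52), Itgav (0.41), Itga5 (0.36), Itgb1 (0.36) and Itgb5 (0.11) were higher in the libraries labelled R3-cKO, and Itga10 (-0.46), Itga6 (-0.33) and Itga11 (-0.035) lower. The median over the members was 0.36 against 0.047 for all genes, with 7 of 10 positive. With the replicate number as a block, 6 members (Itga1, Itga2, Itga3, Itga5, Itga10 and Itgb1) had an unadjusted p under 0.05, as did 1830 of the 11091 genes. Itga2 passed the filter only through the libraries labelled R3-cKO, and without it Itga1, Itga3, Itga5, Itga10 and Itgb1 are left. None of the members was called by limma with the block (adjusted p at least 0.149). Within each of the 3 pairs, Itga1, Itga2, Itga3, Itga5 and Itgb1 were higher under the R3-cKO label and Itga6 and Itga10 lower. Such a pair joins mice of different genotype by number only. The share of all genes with the same direction in all 3 pairs was not counted, so this does not set the members apart. Replicate 1 of R3-Cntl DZ was the lowest of all 12 libraries for 7 of the 10 members (Itga1, Itga2, Itga3, Itga5, Itga11, Itgav and Itgb1) and had the highest sum of chondrocyte markers. Without it, the log2 fold changes were 0.090 for Itgav, 0.17 for Itga5 and 0.14 for Itgb1. No cell marker was called by label in either zone (limma). The hypertrophic and osteoblast markers had a median of -0.99 in DZ and -0.81 in SFZ, with 3 of 8 at an unadjusted p under 0.05 in each, and the chondrocyte markers -0.52 in DZ, with 2 of 14. Their part in the integrin values was not tested. No ligand, adaptor or surface partner gene was called by genotype in either zone (limma). In DZ, 5 of 27 genes of the adaptor list had an unadjusted p under 0.05 (limma), against 3.64% of genes. All 5 were higher in the libraries labelled R3-cKO (Ptk2b, Vcl, Zyx, Actn1 and Cav1). At that level there were also 2 of 11 surface partners (Cd151 and Ddr1, both higher) and 1 of 14 collagens (Col11a2, lower). In SFZ there were 0 in each ligand, adaptor and partner list at that level, against 0.295% of genes.

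**Figure D4:**
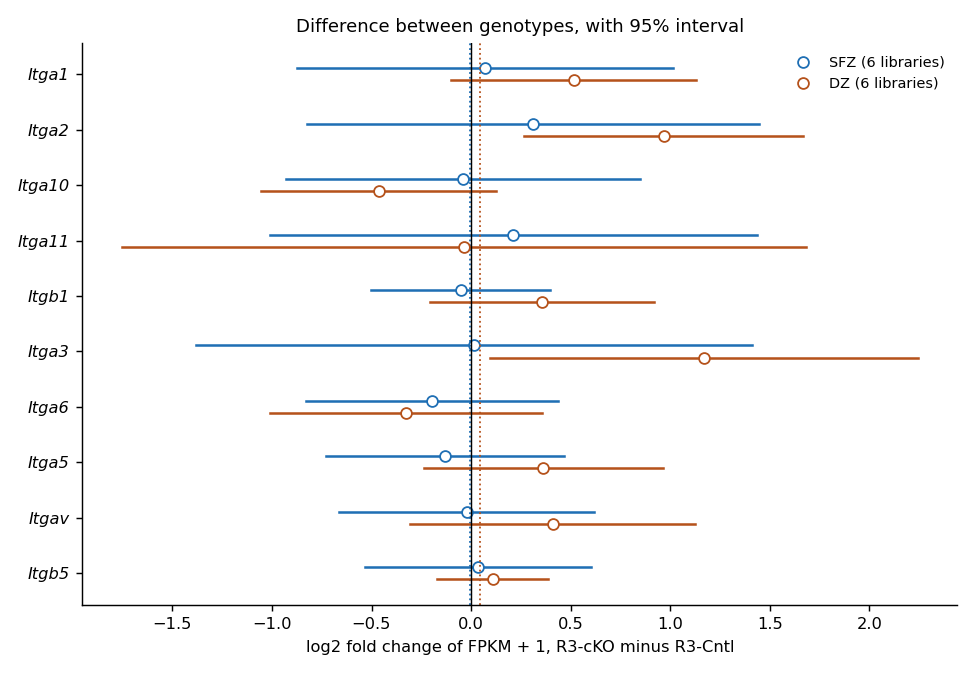
Log2 fold change of FPKM + 1 between the libraries labelled R3-cKO and R3-Cntl for each integrin subunit in SFZ and in DZ, with lines for the 95% interval and dotted lines at the median of all genes tested; a filled point would mark an adjusted p under 0.05. No point is filled, and the DZ intervals of Itga2 (0.27 to 1.67) and Itga3 (0.094 to 2.24) are the only ones that do not include 0.

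Whether the genotype difference itself differed between the zones was tested as an interaction. No member was called (limma, 0 of 10 against 0% of the 11765 genes tested), and 0 had an unadjusted p under 0.05 against 0.841% of genes. With a block for the replicate number, limma again called none. Itga5, Itgb1, Itga3 and Itgav were then at an unadjusted p under 0.05 (adjusted p at least 0.552), as were 949 of the 11765 genes. The estimate was widest for Itga3 (1.15, 95% interval -0.62 to 2.92), followed by Itga2 (0.66), Itga5 (0.49), Itga1 (0.44), Itgav (0.43) and Itgb1 (0.41), with Itgb5 at 0.075, Itga6 at -0.13, Itga11 at -0.25 and Itga10 at -0.42. The zone pattern of the integrins was thus not shown to depend on the genotype label.

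The genotype comparisons also carry a difference in sex, as read from Y-linked transcripts. Ddx3y, a gene of the Y chromosome, measured 4.96 to 21.09 FPKM in all 6 R3-Cntl libraries and in replicate 1 of both groups labelled R3-cKO (10.66 and 12.67 FPKM), and at most 0.02 FPKM in replicates 2 and 3 of both. The part of sex in any integrin difference between the labels was not tested.

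The genes whose levels followed each member most closely over the 12 libraries were found among the 8279 genes averaging 5 FPKM or more, by Pearson r of log2(FPKM + 1). The libraries share zone, genotype label and scaling, so genes that differ between zones rank high with members that do. For Itgb1 they were Nid1 (0.99), Mtpn (0.98) and Sptbn1 (0.98), and Nid1 is itself a laminin-binding basement membrane gene in the list above. For Itga11 they were Atf7ip, Fmnl2 and Ate1 (0.96 each), for Itga1 Sntb2 (0.97), Sdha (0.96) and 2310022B05Rik (0.96), and for Itga2 Bag3 (0.93), Sap30l (0.91) and Nabp1 (0.91). For Itga10 they were Sft2d2 (0.95), Zhx2 (0.93) and Azgp1 (0.92). Itga6 was followed less closely than the others, by Epb41l4b (0.91), Bbx (0.88) and Cttnbp2nl (0.88). For Itga3 they were 2900026A02Rik (0.95), Epha2 (0.95) and Fgf13 (0.94), and for Itga5 Schip1 (0.96), Dstn (0.96) and Glipr2 (0.95). For Itgav they were Hacd4 (0.97), Luzp1 (0.97) and Wnk1 (0.96), and for Itgb5 Cdadc1, Herpud2 and Npc2 (0.97 each). Among the members themselves, Itgav and Itgb1 (0.91), Itga1 and Itgb1 (0.86) and the neighbours Itga1 and Itga2 (0.85) followed each other, and Itga1 and Itga6 ran opposite (-0.82).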

How the data were processed

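The authors sequenced total RNA of 12 samples (BGISEQ-500, 100-base paired reads) and mapped the reads to mm9, and the submitters' processing notes name Bowtie 0.12.2. The deposited values are FPKM scaled by TMM (trimmed mean of M values), a unit read from the values and the table's name. No read totals were given. The values of each library summed to 392241 to 429213 FPKM, and the commonest value below 1 FPKM ran from 0.03 to 0.04 over the libraries for transcripts of 900 to 1100 bases but from 0.06 to 0.14 for 450 to 550 bases, so relative depth could not be read from the values and is unknown. No p-value measures more than the spread between these libraries.

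The values were analysed as log2(FPKM + 1) with limma 3.58.1 (R 4.3.3; empirical Bayes with a mean-variance trend, two-sided), on genes that reached 1 FPKM in 3 or more of the compared libraries. Adjustment of p over all genes tested followed Benjamini and Hochberg, and a gene was called at an adjusted p under 0.05. Fold changes on this scale understate those of low genes. Tables and figures were made with Python 3.11.15, pandas 2.3.3, numpy 2.4.6 and matplotlib 3.10.9. The 6 comparisons were DZ against SFZ in both genotypes, in R3-Cntl and in R3-cKO, R3-cKO against R3-Cntl in each zone, and the interaction; those over both genotypes and the interaction used all 12 libraries. The code was tested on simulated data.

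Samples with the same replicate number were checked for pairing by correlating their deviations from the group means over 8286 genes. The correlations were 0.45, 0.80 and 0.67 between the zones in R3-cKO and 0.69, 0.82 and 0.70 between the genotypes in DZ, so the numbers pair these samples on the data alone. The block was still run as an alternative, and its values stand beside those of the fit without it where they change a call or a count. The labels do not say what a number stands for, the study names 3 mice per genotype for both zones, and mice of different genotype cannot be one animal. Alternatives were a pseudocount of 0.1 or 5, no filter, a filter at a mean of 10 FPKM, median-of-ratios size factors, quantile normalization (named in the study's methods), a block for the replicate number, one model of all 12 libraries, and each library left out. The ligand and partner lists were recomputed with both scalings and without replicate 2 of R3-Cntl SFZ, a choice made after seeing the data.

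Every member was named. From the lists of collagen, RGD and laminin ligands, adaptors, surface partners and other subunits, genes called in a comparison were named, with a few others (Vtn, Tln1, Fermt2, Nid2, Lama5, Cd151, Itgam, Itgb2, Itgb4 and genes at an unadjusted p under 0.05) chosen after their values were seen. For likeness, the 3 genes with the highest r were named. Marker lists covered chondrocytes, superficial zone, fibroblasts and tenocytes, hypertrophic cells and osteoblasts, endothelium, skeletal muscle, keratinocytes, macrophages and leukocytes, osteoclasts, erythroid cells and platelets, and Schwann and neural cells; 7 listed symbols were not in the table. The members and lists were chosen with earlier results of these data known. Positions are from GENCODE vM1. Some overlapping genes and markers are not reported here.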

Additional observations from a re-analysis of the deposited data

How the results depend on the processing

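Of the 10 members, 3 were called between the zones over both genotypes. The count was 1 with size factors, 1 with quantile normalization, 2 with no filter, 2 with a filter at a mean of 10 FPKM and, with single libraries left out, 0 to 3. Within R3-Cntl it was 0, and 0 to 1 with single libraries left out. In R3-cKO, by genotype and for the interaction it was 0 under every alternative run. Depth is unknown. Where a library was left out of a group of 3, the spread was pooled by limma.

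The replicate number as a block gave 5 members over both genotypes (Itga1, Itga11, Itgb1, Itgav and Itgb5) and 4 within R3-Cntl (Itga1, Itga2, Itgb1 and Itgav), or 3 of 9 without Itga2, which passed the filter there only through SFZ libraries. Samples with the same number did not deviate together throughout in R3-Cntl between the zones (correlations 0.60, 0.18 and -0.13) or in SFZ between the genotypes (0.81, -0.045 and -0.42), so these data alone do not show a pairing there, and whether zone libraries of one number share a mouse is not known. Only replicate 1 correlated best with its own number in both. The block moved the genes called from 2424 to 3949 over both genotypes, from 140 to 831 in R3-Cntl and from 2 to 352 in R3-cKO, and it called none by genotype or for the interaction (limma, 51 genes in SFZ, 1830 in DZ and 949 for the interaction at an unadjusted p under 0.05). By genotype in DZ, 6 members had an unadjusted p under 0.05 with the block, against 2 without, and for the interaction 4, against 0 without. Both DZ counts include Itga2, which passed the filter there only through the libraries labelled R3-cKO.

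The genes called over both genotypes numbered 1008 with a filter at a mean of 10 FPKM, and 1245 to 2796 with single libraries left out. In R3-Cntl they numbered 88 and 29 with pseudocounts of 0.1 and 5, 0 with no filter (limma, 3844 at an unadjusted p under 0.05), 8 with a filter at a mean of 10 FPKM, 17 with size factors, 1 with quantile normalization, 798 with all 12 libraries in one model and 0 to 505 with single libraries left out. In R3-cKO they numbered 0 to 7 without the block, except 165 with all 12 libraries in one model.

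Differences close to 0 turned their sign, and the cause was not tested. Over both genotypes, the log2 fold change of Itga3 became 0.074 with size factors and 0.14 with quantile normalization, and that of Itga10 0.080 and 0.072. With a pseudocount of 0.1, Itga11 by genotype in DZ became 0.10. With single libraries left out, values over both genotypes ran from -0.27 to 0.17 for Itga3, -0.10 to 0.14 for Itga5 and -0.22 to 0.074 for Itga10. Within R3-Cntl, Itga10 ran from -0.058 to 0.44, and within R3-cKO, Itga2 ran from -0.73 to 0.14. By genotype in SFZ the ranges were -0.23 to 0.41 for Itga1, -0.18 to 0.69 for Itga2, -0.46 to 0.49 for Itga3, -0.38 to 0.021 for Itga5, -0.39 to 0.040 for Itga6, -0.31 to 0.26 for Itga10, -0.32 to 0.55 for Itga11, -0.30 to 0.14 for Itgav, -0.21 to 0.040 for Itgb1 and -0.12 to 0.29 for Itgb5. By genotype in DZ, Itga11 ran from -0.89 to 0.59. For the interaction, Itga6 ran from -0.37 to 0.068, Itga11 from -1.10 to 0.37 and Itgb5 from -0.18 to 0.23.

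Among the 3 members called over both genotypes, the direction was kept with every library left out. Itga11 ran from -2.24 to -1.51 (adjusted p 0.0114 to 0.0583), Itga1 from -1.11 to -0.78 (0.0149 to 0.0689) and Itgb1 from -0.59 to -0.40 (0.0303 to 0.107).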

Other observations

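Some values belonged to single libraries more than to groups. The summed level of the 10 members was lowest in replicate 1 of R3-Cntl DZ, at 255.9 FPKM, and 357.9 to 513.0 FPKM elsewhere. Replicate 2 had the highest Itga5 of its group in all 4 groups (49.11, 54.82, 44.04 and 62.82 FPKM). Replicate 3 labelled R3-cKO SFZ had the highest level of 4 members (Itga1, Itga2, Itga11 and Itgb5) and the lowest of Itga6. Cav1, the caveolin gene, which is found in complexes with integrins, averaged 14.3 FPKM in R3-Cntl DZ, against 44.2 FPKM under the R3-cKO DZ label. The groups did not overlap, as for 8.03% of the 11091 genes tested, and Cav1 was not called (unadjusted p = 0.0139, adjusted p = 0.999 in limma). It was picked after the values were seen.

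The levels are of mRNA, not of protein at the cell surface, and they were taken from cells held on fibronectin, an integrin ligand, after enzyme digestion. Any effect of these steps was not tested. The groups of 3 libraries leave wide intervals, and the Runx3 level did not separate the genotype labels.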
